A study of Mus musculus with 24 samples.

Results

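The genes described here are the steroid receptors Esr1, Esr2, Pgr, Nr3c1 and Nr3c2 together with Greb1, a gene known as a target of estrogen receptor alpha. They were chosen by symbol, 6 of the 27179 genes in the expression table. Bulk RNA sequencing was carried out on PDGFRb-positive cells, the stromal compartment that contains adipocyte progenitors, isolated by flow cytometry from white fat of C57BL/6 mice. In the gonadal depot the cells were separated into FIP and APC, and in the inguinal depot into DPP4_pos and DPP4_neg. Each subpopulation was taken from males (M) and from females (F), with 3 libraries per group, so the 8 groups were M_FIP, F_FIP, M_APC, F_APC, M_DPP4_pos, F_DPP4_pos, M_DPP4_neg and F_DPP4_neg. The labels name no treatment. The sources used here do not give ages, estrous stage, the number of mice per library or the FIP and APC gates. Heterogeneity by sex and depot is named in the series title, and the comparisons follow those labels.

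Steroid receptors are transcription factors that bind a hormone, attach to response elements in DNA and recruit coregulators. Esr1 and Esr2 encode the alpha and beta estrogen receptors, and Pgr and Greb1 are classical genes induced through estrogen receptor alpha in mammary and uterine cells. Nr3c1 encodes the glucocorticoid receptor, through which glucocorticoids promote adipocyte differentiation, and Nr3c2 encodes the mineralocorticoid receptor, which binds aldosterone and also glucocorticoids.

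Values are normalised counts, that is, reads divided by 1 size factor per library, and libraries held 9152470 to 18221692 reads. The sex labels matched the sex-linked transcripts: Xist reached at most 5.80 in the 12 male libraries and was at least 11954 in the 12 female libraries. The Y-linked gene Ddx3y was 2035 to 3213 in male libraries and 23.1 to 124 in female ones, Eif2s3y 444 to 581 in male libraries and 4.96 to 24.9 in female ones, and Kdm5d 160 to 264 in male libraries and 0.826 to 15.2 in female ones, with the highest female values of all 3 in F_APC. The source of these reads in female libraries was not tested. M_DPP4_neg replicate 2 stood apart in the number of genes detected, 20103 against 16734 to 18134 in the other 23 libraries. The 8 progenitor markers, Pdgfrb and Pdgfra among them, were detected in every group, with a summed level of 223128 to 633913. Markers of other cells were also present. The summed level of 10 epithelial markers was 13.6 to 120 in male libraries, 33.3 to 199 in F_FIP and F_APC, 369 to 656 in F_DPP4_pos and 8083 to 19519 in F_DPP4_neg. Mesothelial markers summed to 34.5 to 77.1 in M_DPP4_neg and 2574 to 6347 in F_DPP4_neg. Nearly all of that female sum was Krt19, at 2561 to 6339, whereas Msln was 3.10 to 6.61 in F_DPP4_neg. Of the 6 mesothelial markers, 1 was called lower and none higher in M_DPP4_neg than in F_DPP4_neg (median log2 fold change -0.13). In M_FIP against F_FIP the markers of adipocytes (5 of 5 called higher, median log2 fold change 1.505), macrophages (5 of 6, 1.91), endothelium (5 of 6, 1.602) and mural cells (4 of 6, 1.01) were higher and none was lower. Adipocyte markers were also higher in males in DPP4_pos (5 of 5, 2.16) and DPP4_neg (3 of 5, 1.04), with none lower. In APC 1 of 5 was higher and 1 lower. Of all genes, 37.2% were called in FIP, 44.4% in APC, 52.6% in DPP4_pos and 57.4% in DPP4_neg. In bulk RNA, fewer cells of a type and less RNA per cell cannot be told apart.

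In the comparison of males with females, Greb1 and Pgr were lower in males in all 4 subpopulations, Esr1 was lower in 3 and higher in DPP4_neg, and the corticosteroid receptors moved by less than 1 log2 unit. Of the 5 members with enough signal to be tested, 1 was higher, 3 were lower and 1 was not called in M_FIP against F_FIP, where 37.2% of all 14517 tested genes were called in either direction. In M_APC against F_APC 3 were lower and 2 were not called, with 44.4% of all genes called. In M_DPP4_pos against F_DPP4_pos 1 was higher and 4 were lower, with 52.6% of all genes called. In M_DPP4_neg against F_DPP4_neg 2 were higher, 2 were lower and 1 was not called, with 57.4% of all genes called. Without M_DPP4_neg replicate 2 those 4 calls were kept, at 0.66 for Esr1, 0.38 for Nr3c1, -6.10 for Greb1 and -7.34 for Pgr on the log2 scale. A call means a Benjamini-Hochberg adjusted p under 0.05 in limma over all tested genes. With so many genes called, the sizes of the differences carry more information than the counts. Called lower in males were 19.0% of all genes in FIP, 22.1% in APC, 25.5% in DPP4_pos and 30.3% in DPP4_neg. The median log2 fold change over all genes lay between -0.03 and 0 in these 4 comparisons.

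**Figure D1:**
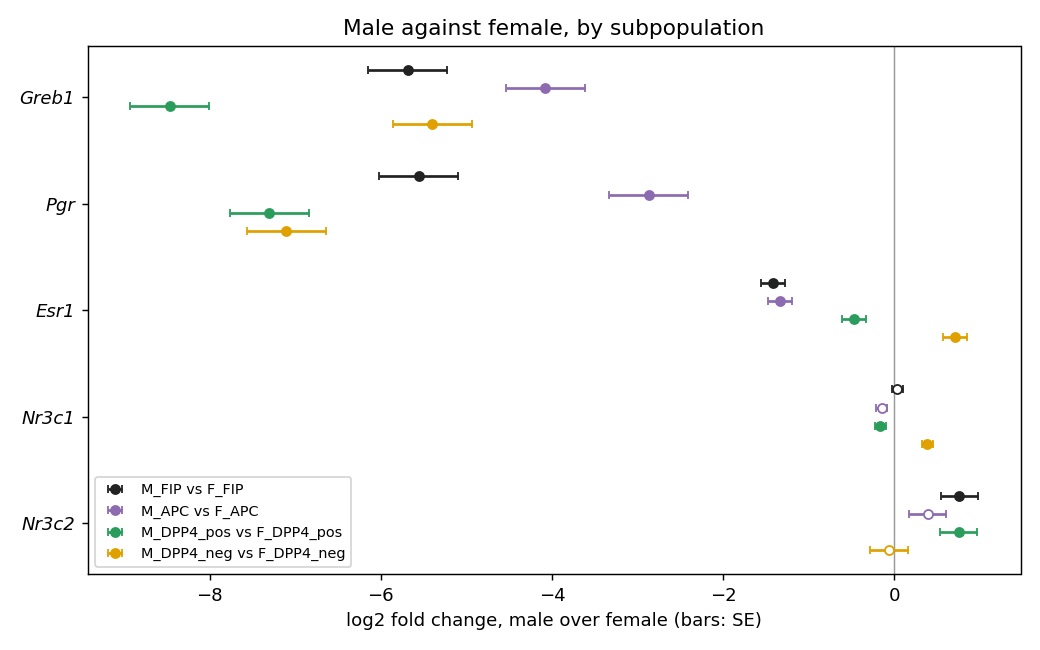
Log2 fold change of each tested member, male over female, in the 4 subpopulations (points, with SE as bars; filled points have an adjusted p under 0.05). Greb1 and Pgr lie between -8.47 and -2.87, whereas Esr1 lies between -1.41 and 0.71 and changes sign in DPP4_neg.

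Esr1, the estrogen receptor alpha gene (chr10:4611593-5005614, plus strand, GRCm38), was abundant in every group, and its sex difference depended on the subpopulation. In FIP the males had 440.2, 417 and 475 normalised counts, against 1183, 1159 and 1208 in females. Every male library was below every female one, and the difference was -1.41 ± 0.14 log2 units (SE, adjusted p = 1.26e-08). In APC the males had 382, 294 and 361, against 989, 738 and 886 in females. The groups again did not overlap, and the difference was -1.33 ± 0.14 (adjusted p = 2.40e-08). The male DPP4_pos libraries had 874, 996 and 715, against 1173, 1228 and 1155 in females. This difference was smaller, -0.47 ± 0.14 (adjusted p = 0.00616), and without M_DPP4_pos replicate 3 it was -0.35 with an adjusted p of 0.0600. In DPP4_neg the order turned round: the males had 842, 1210.1 and 1408, against 746, 706 and 624 in females. All male DPP4_neg libraries lay above all female ones, by 0.71 ± 0.14 (adjusted p = 0.000126).

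Between subpopulations of females, Esr1 was higher in F_FIP than in F_APC by 0.45 ± 0.14 log2 units (adjusted p = 0.0117), although without F_APC replicate 2 the difference was 0.34 with an adjusted p of 0.0888. It was higher in F_DPP4_pos than in F_DPP4_neg by 0.78 ± 0.14 (adjusted p = 4.69e-05). The female FIP and DPP4_pos groups had nearly the same mean level, 1183 ± 24.6 and 1185 ± 38.01 normalised counts (SD, n = 3 each), with a difference of -0.00 ± 0.14 (adjusted p = 0.993). Among males the order differed. Esr1 averaged 444 ± 29.2 in M_FIP and 861 ± 141 in M_DPP4_pos (SD, n = 3 each), a difference of -0.94 ± 0.14 (adjusted p = 1.96e-06). It averaged 346 ± 45.7 in M_APC and 1154 ± 287 in M_DPP4_neg (SD, n = 3 each), a difference of -1.71 ± 0.14 (adjusted p = 7.91e-11). The gonadal male groups were thus the lowest of the 8, and M_APC and M_FIP overlapped no neighbour in the order of group levels, whereas the other 6 groups formed a run in which each overlapped the next.

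The remaining Esr1 differences were near the threshold. M_FIP exceeded M_APC by 0.37 ± 0.14 log2 units (adjusted p = 0.0418), and leaving out any of 5 of the 6 libraries ended that call, with values of 0.25 to 0.41 in those 5. M_DPP4_pos was below M_DPP4_neg, at -0.40 ± 0.14 (adjusted p = 0.0187), which was -0.35 without M_DPP4_neg replicate 2, -0.24 without M_DPP4_neg replicate 3 and -0.27 without M_DPP4_pos replicate 3, none of them called. F_APC exceeded F_DPP4_neg by 0.33 ± 0.14 (adjusted p = 0.0482), and 4 of the 6 single-library omissions ended the call, with values of 0.23 to 0.44 over all 6. In that depot comparison of females, 45.4% of the called genes were higher in F_APC as deposited and 56.6% after quantile normalisation, which moved the median of all genes by 0.13. Tested directly, the male-minus-female difference of the DPP4_pos over DPP4_neg change in Esr1 was -1.18 ± 0.20 (adjusted p = 5.92e-05), and that of the APC over DPP4_neg change was -2.04 ± 0.20 (adjusted p = 9.30e-09). For FIP over DPP4_pos it was -0.94 ± 0.20 (adjusted p = 0.000611), and for FIP over APC it was -0.09 ± 0.20 and was not called (adjusted p = 0.853).

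**Figure D2:**
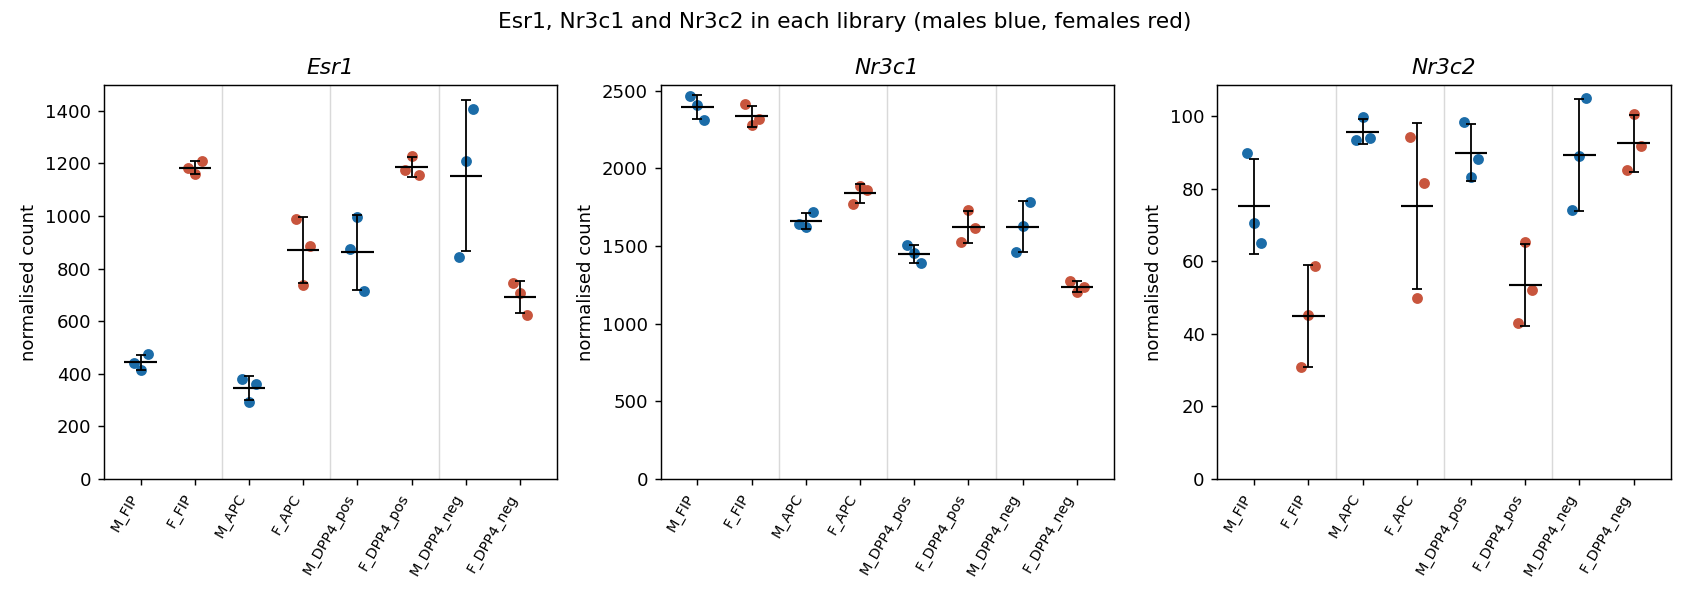
Normalised counts of Esr1, Nr3c1 and Nr3c2 in each library (points, males blue and females red, line at the group mean, bars of 1 SD, n = 3). Male FIP and APC libraries have 294 to 475 counts of Esr1, below every other group, and Nr3c1 is highest in FIP of both sexes.

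Esr2, the estrogen receptor beta gene (chr12:76120419-76177259, minus strand), was close to undetected. The 12 male libraries together held 4 reads, with no library above the 2 reads of M_DPP4_neg replicate 2, and the 12 female libraries together held 1 read. It was below the filter for testing, and an exact two-sided permutation test on 3 against 3 libraries, which cannot go below 0.1, gave p = 1 in all 12 pairwise comparisons. No fold change is given, and a level below this depth cannot be told from absence. Per kilobase of merged exons, the mean level over the 24 libraries was 0.0674 normalised counts for Esr2 and 61.6 for Esr1.

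Pgr, the progesterone receptor gene, lies at chr9:8899833-8968611 on the plus strand, and Greb1, which encodes a chromatin-associated cofactor of estrogen receptor alpha, at chr12:16670615-16800886 on the minus strand (GRCm38). The promoter windows below, from 250 bases before to 50 bases after a RefSeq start site (GRCm38.p6), are shown because these genes had the largest sex differences of the members. Capitals mark GGTCA on either strand, the arm of the estrogen response element. The windows are chr12:16800837-16801136 and chr12:16757190-16757489 for the start sites of Greb1 and chr9:8899583-8899882 for Pgr.
Greb1 start site 1: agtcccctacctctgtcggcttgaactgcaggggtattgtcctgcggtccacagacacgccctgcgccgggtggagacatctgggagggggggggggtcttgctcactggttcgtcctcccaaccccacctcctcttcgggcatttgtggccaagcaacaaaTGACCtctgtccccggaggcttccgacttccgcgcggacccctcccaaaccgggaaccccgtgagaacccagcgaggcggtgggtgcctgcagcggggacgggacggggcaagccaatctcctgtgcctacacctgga
Greb1 start site 2: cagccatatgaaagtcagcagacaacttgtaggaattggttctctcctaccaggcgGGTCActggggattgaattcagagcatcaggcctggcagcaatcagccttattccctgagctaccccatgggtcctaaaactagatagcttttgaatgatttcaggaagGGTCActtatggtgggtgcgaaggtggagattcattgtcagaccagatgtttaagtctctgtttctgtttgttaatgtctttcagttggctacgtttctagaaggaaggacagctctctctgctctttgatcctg
Pgr: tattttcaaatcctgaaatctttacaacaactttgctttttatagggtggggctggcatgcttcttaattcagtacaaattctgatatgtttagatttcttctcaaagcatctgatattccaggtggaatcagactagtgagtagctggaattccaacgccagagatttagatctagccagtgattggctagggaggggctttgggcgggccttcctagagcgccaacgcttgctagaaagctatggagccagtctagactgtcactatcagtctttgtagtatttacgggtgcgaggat

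The palindromic element, GGTCA and TGACC separated by 3 bases and searched on both strands, was found in 0.07% of 32851 promoter windows of this length and in none of these 3. The arm GGTCA, which is contained in the palindrome, was found in 40.5% of all windows. It stands 88 bases before Greb1 start site 1 and 194 and 85 bases before start site 2, and the Pgr window holds none. The Pgr window holds the SP1 box GGGCGG 47 bases before its start, a motif found in 35.7% of all windows. These matches describe letters in the window and no binding was measured.

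Pgr reads were nearly absent from male cells and varied widely among female cells. The male FIP libraries held 0, 1 and 0 reads, against 88.1, 70.8 and 29.9 normalised counts in female FIP. The male APC libraries held 1, 1 and 2 reads, against 19.8, 9.51 and 24.9 normalised counts in female APC. No male library of any group held more than 2 reads of Pgr, whereas the lowest female library held 8. The male DPP4_pos libraries held 2 reads each, against 744, 321 and 565 normalised counts in female DPP4_pos. The male DPP4_neg libraries held 0, 2 and 2 reads, against 432, 324 and 194 normalised counts in female DPP4_neg. Females therefore exceeded males in every library of every subpopulation.

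On the log2(value + 1) scale, male over female Pgr was -5.56 ± 0.46 in FIP (adjusted p = 6.49e-10) and -2.87 ± 0.46 in APC (adjusted p = 1.52e-05). It was -7.30 ± 0.46 in DPP4_pos (adjusted p = 2.32e-12) and -7.10 ± 0.46 in DPP4_neg (adjusted p = 2.52e-12). The added 1 makes these folds smaller than the read ratios, because the male values are near 0. Summed over 3 libraries and scaled for depth, the ratio of female to male reads was 12.0 in APC, with an exact 95% interval of 4.37 to 45.8 for counting error only. It was 241 (110 to 657) in DPP4_pos and 221 (86.1 to 812) in DPP4_neg. In FIP, with 1 male read against 219 female reads, it was 220.9 (39.2 to 8765). Pgr folds between groups of males are not given, since they rest on 1 to 6 reads per group.

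Among females the level of Pgr fell into 3 tiers. F_DPP4_pos averaged 543 ± 212 normalised counts and F_DPP4_neg 317 ± 119 (SD, n = 3 each), and these groups overlapped. Their difference of 0.77 ± 0.46 log2 units was not called by limma (adjusted p = 0.174). It was 0.80 with an adjusted p of 0.00918 in edgeR and 0.78 with an adjusted p of 0.0468 in DESeq2, both run on the recovered reads, and 0.75 with an adjusted p of 0.0347 with a pseudocount of 10. F_FIP averaged 62.9 ± 29.9 and F_APC 18.1 ± 7.83 (SD, n = 3 each), without overlap, and differed by 1.71 ± 0.46 (adjusted p = 0.00437). With a pseudocount of 0.1 that adjusted p was 0.128. Both gonadal female groups were below their inguinal counterparts, at -3.14 ± 0.46 for F_FIP against F_DPP4_pos (adjusted p = 4.05e-06) and at -4.08 ± 0.46 for F_APC against F_DPP4_neg (adjusted p = 3.86e-08).

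Greb1 showed the same split by sex, with low but measurable counts in males. In FIP the males had 3.78, 3.57 and 7.31 normalised counts, against 346, 345 and 204 in females. In APC the males had 20.4, 20.9 and 18.1, against 257, 419 and 395 in females. The male APC libraries were the highest of the male libraries and varied little. In DPP4_pos the males had 4.52, 1.15 and 2.20, against 1502, 763 and 1469 in females, the widest gap of the 4 subpopulations. In DPP4_neg the males had 2.03, 15.3 and 3.70, against 504, 156 and 218 in females. The highest male library of all had 20.9 and the lowest female library of all had 156, so the sexes did not overlap in any group.

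**Figure D3:**
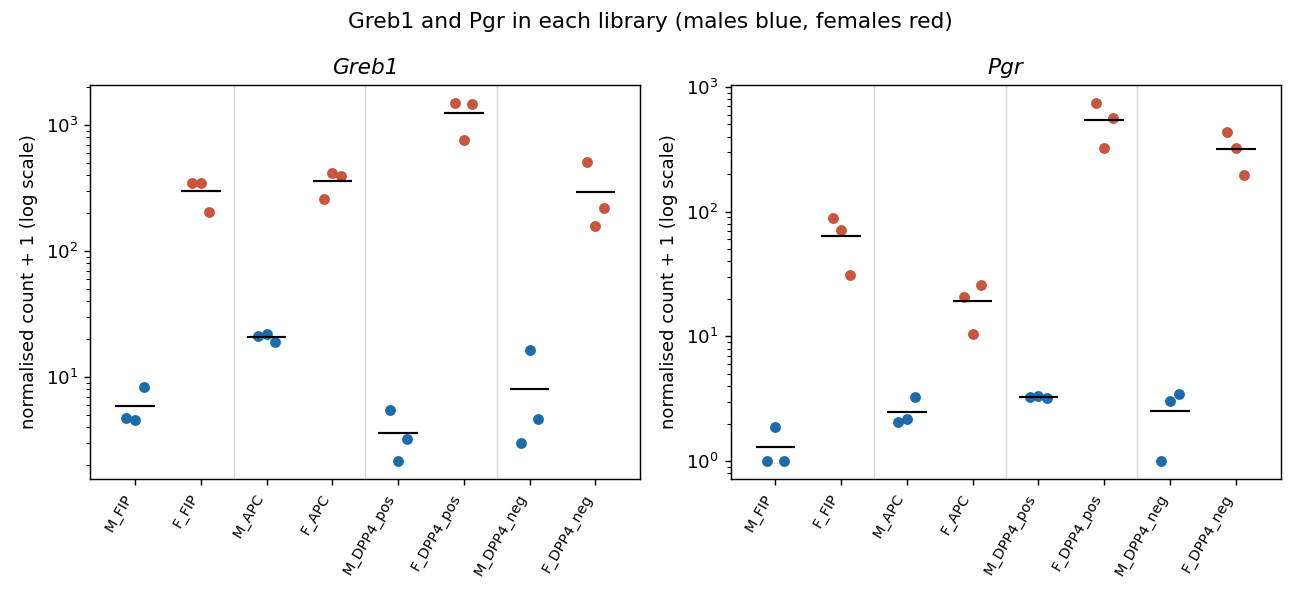
Greb1 and Pgr in each library as normalised count plus 1 on a log axis (points, males blue and females red, line at the group mean). Male libraries reach at most 20.9 counts of Greb1 and 2.47 of Pgr, below the lowest female libraries at 156 and 9.51.

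Male over female Greb1 was -8.47 ± 0.46 log2 units in DPP4_pos (adjusted p = 1.44e-13), and only 2 of the 14517 tested genes had a lower fold change there. It was -5.68 ± 0.46 in FIP (adjusted p = 4.52e-10), -5.40 ± 0.46 in DPP4_neg (adjusted p = 4.09e-10) and -4.08 ± 0.46 in APC (adjusted p = 8.41e-08). In summed reads scaled for depth, males had 0.210% of the female Greb1 level in DPP4_pos (exact 95% interval 0.0842% to 0.432%) and 5.67% in APC (4.22% to 7.49%). The same share for Xist was 0.0201% to 0.0316% over the 4 subpopulations. The male share of Greb1 was thus higher than that of Xist in each subpopulation. Greb1 overlaps the antisense gene Gm48140, and since no strand setting is stated, reads of the antisense gene cannot be told from its own.

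Among females, F_DPP4_pos stood above the rest with 1245 ± 418 normalised counts, and F_FIP, F_APC and F_DPP4_neg had 299 ± 81.9, 357 ± 87.1 and 293 ± 186 (SD, n = 3 each). The last 3 groups overlapped one another. F_DPP4_pos exceeded F_DPP4_neg by 2.20 ± 0.46 log2 units (adjusted p = 0.000304), and F_FIP was below F_DPP4_pos, at -2.03 ± 0.46 (adjusted p = 0.000834). F_FIP and F_APC differed by -0.27 ± 0.46 (adjusted p = 0.688), and F_APC and F_DPP4_neg by 0.43 ± 0.46 (adjusted p = 0.435). Pgr and Greb1 were thus ordered differently over the female groups. The ratio of mean Pgr to mean Greb1 counts, which is not corrected for length, was 0.211 in F_FIP, 0.0506 in F_APC, 0.437 in F_DPP4_pos and 1.08 in F_DPP4_neg.

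Among males, Greb1 averaged 19.8 ± 1.48 normalised counts in M_APC and 2.63 to 7.02 in the other groups (SD, n = 3). M_FIP was below M_APC, at -1.87 ± 0.46 log2 units (adjusted p = 0.00218), a call that edgeR on the recovered reads did not make (-1.96, adjusted p = 0.122). M_APC exceeded M_DPP4_neg by 1.76 ± 0.46 (adjusted p = 0.00180), which edgeR also did not call (1.47, adjusted p = 0.177) and DESeq2 did (1.48, adjusted p = 0.0263). These comparisons rest on 17 reads in M_FIP, 53 in M_APC and 20 in M_DPP4_neg, of which 15 came from M_DPP4_neg replicate 2, the library with the most genes detected. Without that library, M_APC exceeded M_DPP4_neg by 2.46 (adjusted p = 1.57e-05) and M_DPP4_pos over M_DPP4_neg was -0.17 (adjusted p = 0.776). M_DPP4_pos and M_DPP4_neg differed by -0.87 ± 0.46 (adjusted p = 0.122), a difference that was called at -1.38 without M_DPP4_neg replicate 1 and at -1.23 without M_DPP4_pos replicate 1. M_FIP and M_DPP4_pos differed by 0.75 ± 0.46 (adjusted p = 0.159). The male-minus-female difference of the DPP4_pos over DPP4_neg change was -3.07 ± 0.65 (adjusted p = 0.000857). EdgeR gave -3.54 with an adjusted p of 0.0894, and DESeq2 gave -3.52 with an adjusted p of 0.00114. Without M_DPP4_neg replicate 2 the limma value was -2.37 (adjusted p = 0.00236). That of the APC over DPP4_neg change was 1.32 and was not called (adjusted p = 0.108), but without the same library it was 2.02 (adjusted p = 0.00503). That of the FIP over DPP4_pos change was 2.78 ± 0.65 (adjusted p = 0.00177). EdgeR gave 2.98 with an adjusted p of 0.159, and DESeq2 gave 2.97 with an adjusted p of 0.00711.

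The female inguinal libraries differed among themselves in 2 measures that stand beside the values of Pgr, Greb1 and Esr1, the epithelial markers and Dpp4. Mammary epithelium is known to express these 3 genes. The summed level of 10 epithelial markers was 369, 656 and 397 normalised counts in F_DPP4_pos replicates 1, 2 and 3, against 8083, 19519 and 11441 in F_DPP4_neg. The 10 markers were all detected in both groups, with Epcam at 30.0 to 61.5 in F_DPP4_pos and 803 to 1913 in F_DPP4_neg. Dpp4, the gene of the sorted surface protein, was 17356, 20848 and 18412 in F_DPP4_pos replicates 1, 2 and 3, against 4213, 2124 and 1150 in F_DPP4_neg. Within F_DPP4_neg, Pgr at 432, 324 and 194 had the same order as Dpp4, and the library highest in Greb1, replicate 1 with 504, was the highest in Dpp4 and the lowest in epithelial markers. Within F_DPP4_pos, replicate 2 was the lowest in Greb1 and Pgr and the highest in Dpp4 and in epithelial markers. In the gonadal depot, Greb1 and Pgr were also lower in males. The epithelial sum was 35.1 to 50.4 in M_APC, against 61.4 to 199 in F_APC. It was 75.6 to 89.2 in M_FIP, against 33.3 to 37.8 in F_FIP. Most of the M_FIP sum was Cldn3 and Krt8, at means of 42.1 and 26.0, against 12.3 and 10.1 in F_FIP. Epcam averaged 1.15 in M_FIP and 2.43 in F_FIP. In APC 4 of the 10 markers were called lower and 1 higher in males (median -1.10), near the 44.4% of all genes called in either direction. In FIP 3 were called higher and none lower (median 0.01), near the 37.2% of all genes called there. Of 6 mesothelial markers, 5 were lower and none higher in males in APC (median -1.52), and 1 was higher and none lower in FIP. The part of these cells in the gonadal values was not tested. Foxa1 was at 0 in every library of M_FIP and M_APC, Cdh1 in M_FIP and Krt14 in M_DPP4_pos. The part of epithelial or DPP4-positive cells in the DPP4_neg values was not tested. Greb1 and Pgr had their highest library in common in 3 of the 4 female groups and their lowest in 2 of the 4.

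**Figure D4:**
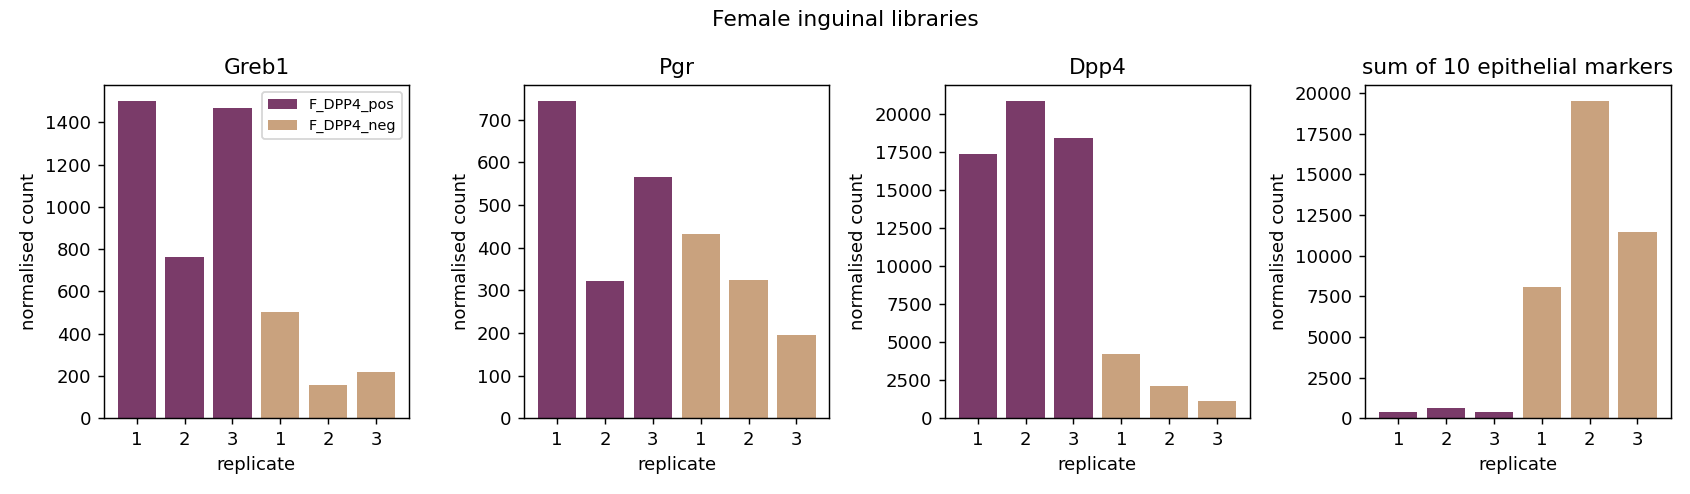
Greb1, Pgr, Dpp4 and the sum of 10 epithelial markers in the 6 female inguinal libraries (bars, normalised counts, F_DPP4_pos left of F_DPP4_neg). The epithelial sum is 369 to 656 in F_DPP4_pos and 8083 to 19519 in F_DPP4_neg, and Dpp4 varies from 1150 to 4213 within F_DPP4_neg.

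Nr3c1, the glucocorticoid receptor gene (chr18:39410545-39519421, minus strand), was the most abundant member per length, with a mean of 231 normalised counts per kilobase over the 24 libraries, against 29.1 for Greb1, 13.8 for Pgr and 11.9 for Nr3c2. Its level was highest in FIP of both sexes. M_FIP had 2469, 2405 and 2313 normalised counts, against 1645, 1624 and 1718 in M_APC. These groups did not overlap, and the difference was 0.53 ± 0.07 log2 units (adjusted p = 4.90e-07). F_FIP had 2413, 2282 and 2317, against 1772, 1887 and 1861 in F_APC. FIP was again above APC, by 0.35 ± 0.07 (adjusted p = 0.000159). FIP also exceeded its inguinal counterpart, by 0.72 ± 0.07 for M_FIP against M_DPP4_pos (adjusted p = 6.77e-10) and by 0.53 ± 0.07 for F_FIP against F_DPP4_pos (adjusted p = 4.06e-07).

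No sex difference in Nr3c1 was called within the gonadal depot, where male over female was 0.04 ± 0.07 log2 units in FIP (adjusted p = 0.716) and -0.15 ± 0.07 in APC (adjusted p = 0.0766). In DPP4_neg the males had 1461, 1628 and 1787, against 1275, 1203 and 1239 in females. All male libraries were above all female ones, by 0.39 ± 0.07 (adjusted p = 2.32e-05). In DPP4_pos the males had 1507, 1455 and 1392, against 1526, 1733 and 1615 in females. That difference was -0.16 ± 0.07 (adjusted p = 0.0433). The call was lost without filtering, when only the 2 groups were fitted and without any of 4 single libraries, with values of -0.21 to -0.11 over the 6 omissions. Like Esr1, Nr3c1 was called higher in males in DPP4_neg and in no other subpopulation.

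F_DPP4_pos exceeded F_DPP4_neg in Nr3c1 by 0.39 ± 0.07 log2 units (adjusted p = 2.49e-05). M_DPP4_pos was below M_DPP4_neg, at -0.16 ± 0.07 (adjusted p = 0.0484), and 4 of 6 omissions of a library ended that call, with values of -0.16 to -0.09 in those 4. The male-minus-female difference of this change was -0.55 ± 0.09 (adjusted p = 7.92e-05). F_APC exceeded F_DPP4_neg by 0.57 ± 0.07 (adjusted p = 6.26e-08), and M_APC differed from M_DPP4_neg by 0.04 ± 0.07 (adjusted p = 0.636), or 0.38 with an adjusted p of 6.57e-06 after quantile normalisation. The male-minus-female difference of the APC over DPP4_neg change was -0.53 ± 0.09 (adjusted p = 5.77e-05).

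Nr3c2, the mineralocorticoid receptor gene (chr8:76899442-77245012, plus strand), was low in every group, between 30.7 and 105 normalised counts in all 24 libraries. M_FIP had 89.7, 70.5 and 65.0 normalised counts, against 30.7, 45.2 and 58.7 in F_FIP. Males were higher by 0.76 ± 0.22 log2 units (adjusted p = 0.00727), which was 0.52 with an adjusted p of 0.0778 without F_FIP replicate 1. M_DPP4_pos had 98.3, 83.1 and 88.1, against 43.0, 65.4 and 52.0 in F_DPP4_pos. These groups did not overlap either, and males were higher by 0.75 ± 0.22 (adjusted p = 0.00523). M_APC had 93.4, 99.7 and 93.9, against 94.1, 49.9 and 81.6 in F_APC, a difference of 0.39 ± 0.22 (adjusted p = 0.151). M_DPP4_neg had 74.1, 88.8 and 105, against 85.0, 101 and 91.7 in F_DPP4_neg, a difference of -0.06 ± 0.22 (adjusted p = 0.831).

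Among females, Nr3c2 was lower in F_FIP than in F_APC, at -0.73 ± 0.22 log2 units (adjusted p = 0.00920), which was -0.55 without F_APC replicate 1 and -0.49 without F_FIP replicate 1, neither of them called. It was lower in F_DPP4_pos than in F_DPP4_neg, at -0.80 ± 0.22 (adjusted p = 0.00372), and at -0.48 with an adjusted p of 0.0678 after quantile normalisation. Both Dpp4-high female groups thus had the lower Nr3c2 level. No comparison between male groups was called for Nr3c2, with values of -0.36 ± 0.22 for M_FIP against M_APC, 0.02 ± 0.22 for M_DPP4_pos against M_DPP4_neg, 0.11 ± 0.22 for M_APC against M_DPP4_neg and -0.27 ± 0.22 for M_FIP against M_DPP4_pos. The male-minus-female difference of the DPP4_pos over DPP4_neg change was 0.82 ± 0.31 (adjusted p = 0.0487), and 10 of the 12 omissions of a library ended that call, with values of 0.67 to 0.87 in those 10.

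Counted over members, F_FIP against F_APC had 3 higher and 1 lower of 5, with 39.4% of all tested genes called, and M_FIP against M_APC had 2 higher and 1 lower, with 36.9% called. F_DPP4_pos against F_DPP4_neg had 3 higher and 1 lower, with 49.7% called, and M_DPP4_pos against M_DPP4_neg had 2 lower, with 50.5% called. Between depots, F_APC against F_DPP4_neg had 2 higher and 1 lower, with 59.0% called, and M_APC against M_DPP4_neg had 1 of each, with 66.1% called. F_FIP against F_DPP4_pos had 1 higher and 2 lower, with 44.7% called, and M_FIP against M_DPP4_pos had 1 higher and 2 lower, with 65.0% called. Of those 2 lower in M_FIP, 1 is Pgr, at 1 against 6 reads. In the male-minus-female differences, 10.8% of all genes were called for FIP over APC, 29.0% for DPP4_pos over DPP4_neg, 42.9% for APC over DPP4_neg and 34.9% for FIP over DPP4_pos. Leaving out Pgr, whose male values are too low for such a difference, the members called there numbered 0 of 4, 4 of 4, 2 of 4 and 2 of 4 in that order.

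The genes of steroid signalling around the receptors were grouped in 8 lists. In none of them were all tested genes called lower in males in any of the 4 subpopulations, whereas Greb1 and Pgr were called lower in all 4. Values are log2 fold changes of males over females ± SE, each with an adjusted p under 0.05 unless stated otherwise. Of 17 tested estrogen-responsive genes, 4 were higher and 3 lower in M_FIP than in F_FIP, with a median log2 fold change of 0.01 against -0.02 over all genes, and 7 of 17 called is near the 37.2% of all genes called there. In M_APC against F_APC 5 were higher and 5 lower, with 44.4% of all genes called. Rara, the retinoic acid receptor alpha gene, was higher in males in all 4 subpopulations, by 1.37 ± 0.11 in FIP, 1.41 ± 0.11 in APC, 0.63 ± 0.11 in DPP4_pos and 0.90 ± 0.11 in DPP4_neg. Igf1, a growth factor, was higher in males by 1.13 ± 0.11 in FIP, 1.69 ± 0.11 in APC and 1.12 ± 0.11 in DPP4_neg, but was -0.20 ± 0.11 and not called in DPP4_pos (adjusted p = 0.120). In M_DPP4_pos against F_DPP4_pos 6 were higher and 4 lower, with 52.6% of all genes called, and those lower include Ltf, the lactoferrin gene, at -3.97 ± 0.51, Stc2, which encodes a secreted stanniocalcin, at -2.65 ± 0.25 and Egr3, an early-response transcription factor, at -1.42 ± 0.15. Of 8 immediate early genes, which cell dissociation is known to induce, 2 were higher and 5 lower in the same comparison, with a median of -0.77 and a summed level of 88018 to 96520 in M_DPP4_pos, against 124971 to 144596 in F_DPP4_pos, and their part in the Egr3 value was not tested. In M_DPP4_neg against F_DPP4_neg 7 of the 17 were higher and 3 lower, near the 57.4% of all genes called, with Stc2 at -4.28 ± 0.25 and Egr3 at -0.74 ± 0.15. In FIP Egr3 was lower at -0.44 ± 0.15. Ltf was called in DPP4_pos alone of the 4 subpopulations, and Stc2 was not called in FIP or APC.

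Progesterone-responsive genes gave 5 tested members. Areg, a ligand of the epidermal growth factor receptor, was lower in males at -6.98 ± 0.48 in DPP4_neg, -3.71 ± 0.48 in DPP4_pos and -2.22 ± 0.48 in APC, and was not called in FIP (0.04 ± 0.48, adjusted p = 0.963). Wnt4, a secreted Wnt ligand, was lower at -2.83 ± 0.40 in DPP4_neg and -2.30 ± 0.40 in DPP4_pos, and was not called in FIP (-0.90 ± 0.40) or APC (-0.92 ± 0.40). Bmp2 and Fst, a bone morphogenetic protein and follistatin, were higher in both inguinal subpopulations of males, at 1.82 ± 0.14 and 1.28 ± 0.10 in DPP4_neg and 0.70 ± 0.14 and 1.43 ± 0.10 in DPP4_pos. In FIP they differed in sign, with Bmp2 higher at 1.54 ± 0.14 and Fst lower at -0.82 ± 0.10, and in APC Fst was lower at -0.92 ± 0.10 and Bmp2 was not called (-0.11 ± 0.14). The genes that were lower in the inguinal subpopulations include products of mammary epithelium, whose markers differ between the same groups as given above, and the part of that epithelium was not tested.

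**Figure D5:**
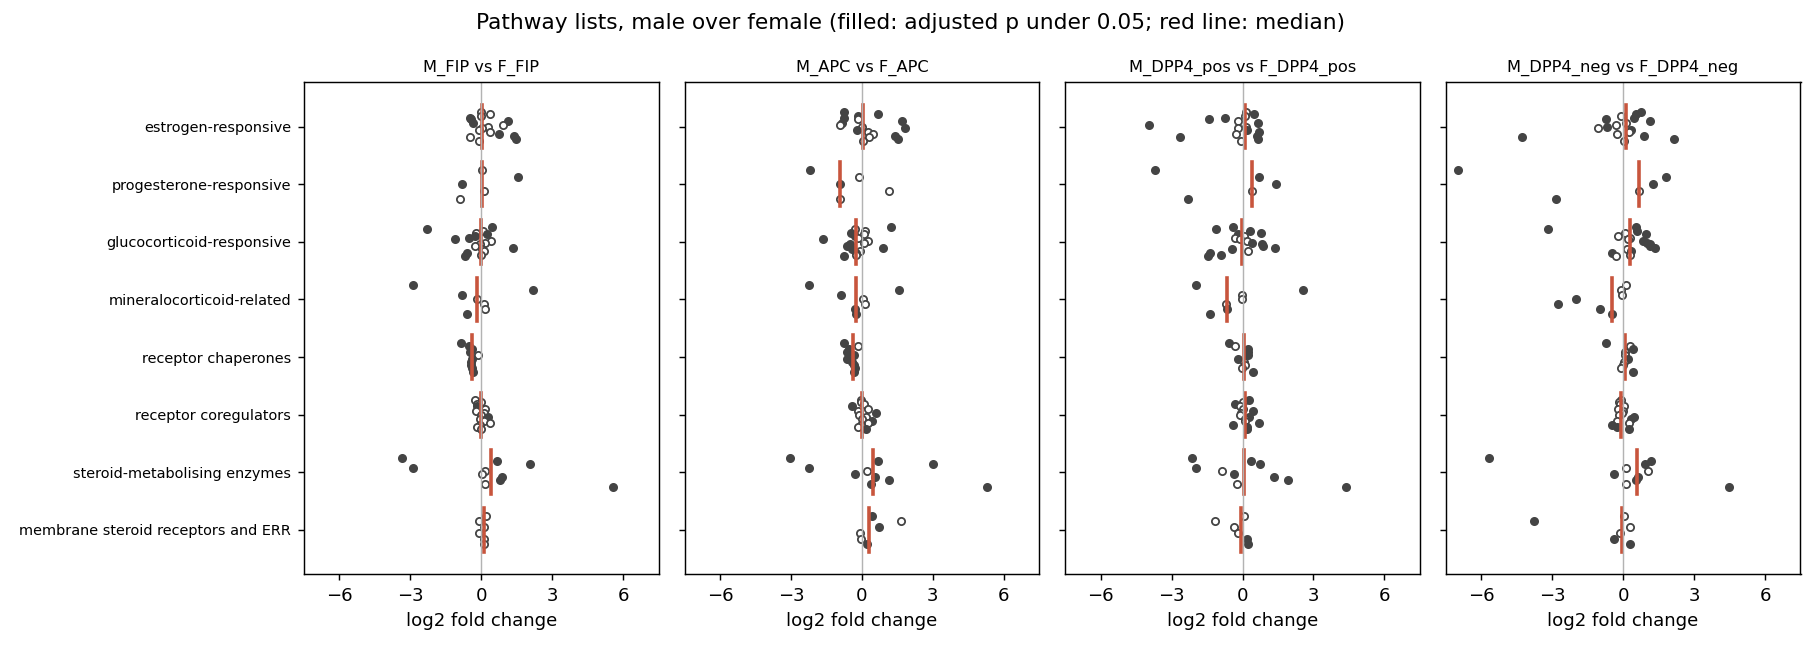
Log2 fold changes, male over female, of the tested genes of 8 steroid signalling lists in each subpopulation (points, filled at an adjusted p under 0.05, red line at the list median). The receptor chaperones have medians of -0.41 in FIP and -0.39 in APC, against 0.07 in DPP4_pos and 0.08 in DPP4_neg.

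The receptor chaperones, which hold unliganded steroid receptors in a hormone-binding state, differed between the sexes mainly in the gonadal depot. Of 10 tested, 9 were lower and none higher in M_FIP than in F_FIP, with a median of -0.41 and 19.0% of all genes called lower, and 9 were lower and none higher in M_APC than in F_APC, with a median of -0.39 and 22.1% of all genes called lower. In FIP the markers of adipocytes, macrophages, endothelium and mural cells were higher in males, as given above, and 5 of 8 progenitor markers were lower and 2 higher in males in both FIP and APC, with medians of -0.46 and -0.56. The part of these cells in the chaperone values was not tested. In DPP4_pos 4 were higher and 2 lower, with 52.6% of all genes called, and in DPP4_neg 3 were higher and 1 lower, with 57.4% called. The male-minus-female difference of the gonadal over inguinal change was called lower for 7 of the 10 in APC over DPP4_neg and for 7 of the 10 in FIP over DPP4_pos. None of the 10 was called higher in either. For APC over DPP4_neg 42.9% of all genes were called, 52.6% of these higher. For FIP over DPP4_pos 34.9% were called, 45.0% of these higher. Fkbp4, an immunophilin of the receptor complex, was lower in males in all 4 subpopulations, at -0.85 ± 0.11 in FIP, -0.75 ± 0.11 in APC, -0.57 ± 0.11 in DPP4_pos and -0.72 ± 0.11 in DPP4_neg. Stip1, a cochaperone, was lower in the gonadal groups, at -0.34 ± 0.09 in FIP and -0.35 ± 0.09 in APC, and higher in the inguinal ones, at 0.43 ± 0.09 in DPP4_pos and 0.40 ± 0.09 in DPP4_neg. Of 15 coregulators, which open or close chromatin at receptor sites, 1 was higher and 1 lower in FIP, 3 were higher and 1 lower in APC, 6 were higher and 2 lower in DPP4_pos, and 3 were higher and 2 lower in DPP4_neg. These counts stand beside 37.2%, 44.4%, 52.6% and 57.4% of all genes called in FIP, APC, DPP4_pos and DPP4_neg.

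Among 10 tested steroid-metabolising enzymes, 5 were higher and 2 lower in M_FIP than in F_FIP, 6 and 3 in APC, 5 and 3 in DPP4_pos and 5 and 2 in DPP4_neg, where 37.2%, 44.4%, 52.6% and 57.4% of all genes were called in that order. Sult1e1, the sulfotransferase that inactivates estrogens, was higher in males by 5.55 ± 0.14 in FIP, 5.29 ± 0.14 in APC, 4.36 ± 0.14 in DPP4_pos and 4.50 ± 0.14 in DPP4_neg. Its sign was opposite to that of Greb1 and Pgr in each subpopulation. Akr1c18, which inactivates progesterone, was lower in males at -3.35 ± 0.48 in FIP, -3.05 ± 0.48 in APC, -2.12 ± 0.48 in DPP4_pos and -5.69 ± 0.48 in DPP4_neg. Hsd11b1, which regenerates active glucocorticoid, was higher in males by 2.05 ± 0.12 in FIP, 3.01 ± 0.12 in APC, 0.76 ± 0.12 in DPP4_pos and 0.91 ± 0.12 in DPP4_neg. Hsd11b2, which inactivates glucocorticoids and so protects the mineralocorticoid receptor, was lower in males at -2.91 ± 0.33 in FIP, -2.23 ± 0.33 in APC and -1.97 ± 0.33 in DPP4_pos, and was not called in DPP4_neg (0.14 ± 0.33).

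Of 18 glucocorticoid-responsive genes, 3 were higher and 6 lower in M_FIP than in F_FIP, and 2 were higher and 8 lower in M_APC than in F_APC, with 37.2% and 44.4% of all genes called. In DPP4_pos 6 were higher and 7 lower, with 52.6% called. In DPP4_neg, the subpopulation in which Nr3c1 was higher in males, 9 were higher and 2 lower, with a median of 0.31 against -0.03 over all genes, and 11 of 18 called is near the 57.4% of all genes called. In that comparison 5 of 8 immediate early genes were higher and 1 lower (median 0.44), with a summed level of 154126 to 161819 in M_DPP4_neg, against 109035 to 146755 in F_DPP4_neg, and 3 of 5 adipocyte markers were higher and none lower (median 1.04). Their part in the glucocorticoid-responsive values was not tested. Nfkbia, the inhibitor of NF-kappaB, was higher in males throughout, at 1.36 ± 0.09 in FIP, 0.87 ± 0.09 in APC, 1.38 ± 0.09 in DPP4_pos and 1.36 ± 0.09 in DPP4_neg. Cdkn1c, a cyclin-dependent kinase inhibitor, was lower at -2.31 ± 0.12 in FIP, -1.12 ± 0.12 in DPP4_pos and -3.18 ± 0.12 in DPP4_neg, and was not called in APC (-0.29 ± 0.12, adjusted p = 0.0599). Of 7 tested mineralocorticoid-related genes, 1 was higher and 3 lower in FIP, 1 and 4 in APC, 1 and 3 in DPP4_pos, and 4 were lower in DPP4_neg, beside the same shares of all genes called. Sgk1, a kinase induced by both corticosteroid receptors and a member of both lists, was lower in males at -0.62 ± 0.07 in FIP, -0.26 ± 0.07 in APC, -1.36 ± 0.07 in DPP4_pos and -0.48 ± 0.07 in DPP4_neg. Lcn2, of the mineralocorticoid-related list, was higher in males by 2.19 ± 0.30 in FIP, 1.58 ± 0.30 in APC and 2.58 ± 0.30 in DPP4_pos. It was not called in DPP4_neg (-0.09 ± 0.30). Of 6 tested membrane steroid receptors and estrogen-related receptors, none was called in FIP, 3 were higher in APC, 2 were higher in DPP4_pos, and 1 was higher and 2 lower in DPP4_neg, again beside those shares.

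Across the 24 libraries, the genes whose log2 levels followed each member most closely were taken from 8878 genes with a mean of at least 100. The correlations describe libraries that share sex, depot and sort, and carry no p. Greb1 was closest to Ptpn5 (r = 0.94), Xist (r = 0.93), Fbxw17 (r = 0.93) and Elovl5 (r = 0.92), and Pgr to Tmem267 (r = 0.94), Ptpn5 (r = 0.93), Zfp866 (r = 0.92) and Sp1 (r = 0.91). Ptpn5 thus appeared for both. Esr1 was closest to R3hdm1 (r = 0.92), Cblb (r = 0.91), Prkag2 (r = 0.89) and Xdh (r = 0.89). Nr3c1 was closest to Fbln5 (r = 0.92), Fhl1 (r = 0.90), Lmo2 (r = 0.89) and Gab2 (r = 0.89). Nr3c2 had lower values, with Tuba4a (r = 0.84), Cav2 (r = 0.82), Hdac5 (r = 0.81) and Dedd2 (r = 0.81).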

How the data were processed

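RNA from 24 libraries was sequenced in bulk. Per the labels, RNA came from Trizol extracts and 0.5 ug entered the NEBNext Ultra II kit. The submitters' processing notes name Trim Galore 0.4.1, HISAT2 2.0.1, featureCounts 1.4.6, DESeq2 1.6.3 and GRCm38 or mm10, while the sources used here do not give the annotation or strand setting. Each deposited value is a normalised signal, which the authors obtained by dividing the reads of a gene by a size factor for its library. That origin was checked on the values: 100% were whole multiples of a step within 0.01 read. The step was the smallest positive value of each library, taken as a single read. Read counts were recovered on that basis. Genes without a symbol held at most 0.0765% of a library's reads.

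Values were tested as log2(value + 1) with limma 3.58.1 (R 4.3.3, mean-variance trend, 8 group means over 24 libraries), for the 14517 genes reaching 10 in 3 or more libraries. The model assumes 1 spread per gene over all groups, so the standard error of a member is the same in every pairwise comparison. Comparisons were male with female, FIP with APC, DPP4_pos with DPP4_neg and gonadal with inguinal cells, and the differences of these between sexes. Alternatives were quantile normalisation, pseudocounts of 0.1 and 10, no filter, a filter at 50, edgeR 4.0.16 and DESeq2 1.42.0 on recovered reads, fits of only the groups compared, a replicate block and leaving out each library. The limma and edgeR steps were tested on simulated data. Over all 24 libraries, 5 members passed the filter and Esr2 did not.

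The members, the gene lists and the rules for named genes were chosen with earlier results of these data known. All members are named, with the 4 genes most correlated with each. Up to 4 called genes per list and comparison were eligible by size of the difference. Some of them are named and then followed in the other comparisons, and not every eligible gene is named. Exon lengths and gene positions are from GENCODE M21. Promoters are from the set of RefSeq start sites available here, which held 5 of the 6 members and no window for Nr3c1. Replicate libraries correlated at 0.982 to 0.992 (log2 values), and their chi-square per degree of freedom was 1.58 to 25.1, above that of sampling noise in every pair. Whether replicates came from separate mice is not stated, and the p-values may therefore reflect technical spread between libraries only.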

Additional observations from a re-analysis of the deposited data

Results flagged for a closer look

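Effects that differed between males and females under the same contrast, by a limma test of the difference itself (log2 scale, male minus female), were found for 4 members. For DPP4_pos over DPP4_neg the difference was -1.18 for Esr1, -3.07 for Greb1, -0.55 for Nr3c1 and 0.82 for Nr3c2. The value for Esr1 combines -0.40 in males with 0.78 in females, and that for Greb1 combines -0.87 with 2.20. For APC over DPP4_neg it was -2.04 for Esr1, with -1.71 in males and 0.33 in females, and -0.53 for Nr3c1, with 0.04 in males and 0.57 in females. For FIP over DPP4_pos it was -0.94 for Esr1, with -0.94 in males and -0.00 in females, and 2.78 for Greb1, with 0.75 in males and -2.03 in females. EdgeR called neither Greb1 difference (adjusted p of 0.0894 for DPP4_pos over DPP4_neg and 0.159 for FIP over DPP4_pos). DESeq2 on the recovered reads called both (adjusted p of 0.00114 and 0.00711 in that order). The Nr3c2 difference lost its call in 10 of 12 omissions of a library and after quantile normalisation. The summed epithelial markers were at 13.6 to 30.6 in male DPP4_neg, against 8083 to 19519 in female DPP4_neg, and the part of those markers was not tested.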

How the results depend on the processing

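The 16 counts of called genes stayed within 1.48 times the reported value in all 264 refits. The tally of member results leaves out Pgr between male groups and in male-minus-female differences. Limma called Pgr there in M_FIP against M_DPP4_pos and in the differences for FIP over APC, APC over DPP4_neg and FIP over DPP4_pos. EdgeR called none of them (adjusted p of 0.316, 0.384, 0.149 and 0.977), and DESeq2 only APC over DPP4_neg (adjusted p = 0.00115). Of the 72 member results kept, 47 were called, and 31 of these were called in the same direction under every alternative run. None that was called reversed. Greb1 and Pgr, lower in males in 4 subpopulations, were among those that kept their call, as were Esr1 in FIP, APC and DPP4_neg and Nr3c1 in DPP4_neg. Results that reversed were not called. After quantile normalisation these were Nr3c2 in M_DPP4_neg against F_DPP4_neg (0.20), Nr3c2 in M_APC against M_DPP4_neg (-0.094), Esr1 in F_FIP against F_DPP4_pos (0.14) and the Nr3c2 male-minus-female difference for FIP over DPP4_pos (-0.10, and -0.012 with a pseudocount of 10). In edgeR they were Nr3c2 in M_DPP4_pos against M_DPP4_neg (-0.0015) and Esr1 in F_FIP against F_DPP4_pos (0.0040). Leaving out 1 library gave ranges across 0 for Esr1 in F_FIP against F_DPP4_pos (-0.021 to 0.024), Nr3c1 in M_APC against M_DPP4_neg (-0.037 to 0.11), Nr3c2 in M_APC against M_DPP4_neg (-0.013 to 0.23), Nr3c2 in M_DPP4_neg against F_DPP4_neg (-0.18 to 0.065) and Nr3c2 in M_DPP4_pos against M_DPP4_neg (-0.11 to 0.14). The same held for the male-minus-female differences of Esr1 for FIP over APC (-0.20 to 0.028) and Nr3c2 for FIP over DPP4_pos (-0.23 to 0.22). The cause was not tested. With all groups pooled, same-numbered libraries of different groups did not deviate together (r of -0.17 to 0.20, median -0.00, over 0.1 in 4 of 84 pairs). For 9 of 24 libraries, the best correlated library of another group had the same number. The pooled pairs include males with females, so pairing within a depot and sex cannot be judged from them. The main fit does not treat the numbers as pairs. With a replicate block 5642 genes were called in F_FIP against F_APC, against 5719, and 5 member calls were lost: Esr1 in M_FIP against M_APC and F_APC against F_DPP4_neg, Nr3c1 in M_DPP4_pos against M_DPP4_neg and against F_DPP4_pos, and the Nr3c2 difference for DPP4_pos over DPP4_neg (adjusted p of 0.0534, 0.0597, 0.0586, 0.0527 and 0.0573). Depth limits Esr2 and male Pgr, at no more than 2 reads per library.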
